A study of Mus musculus with 16 samples.

Results

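Collagens are the triple-helical proteins that give the lung its tensile frame and the network of its basement membranes. Every row of the deposited gene table named Col, a number, a and a number was taken as a collagen gene, which gave 44 genes of 38003. They were grouped as 11 fibrillar collagens, 8 basement membrane collagens and 25 others, namely 6 of beaded filaments, 4 anchoring and short-chain, 9 fibril-associated and 6 transmembrane or remaining collagens. Single-cell RNA sequencing had been done on live sorted cells of mouse lungs, and the authors' annotation held 80449 cells of 22 types in 15 samples. Without cancer cells, each of the treatments vehicle, 6-OHDA and BIBO3304 had 3 samples. In lungs seeded with pancreatic ductal adenocarcinoma (PDAC) cells each had 2, and these groups carry the ending -PDAC. 6-OHDA is a toxin taken up by sympathetic nerve terminals, and BIBO3304 blocks NPY1R, a receptor of neuropeptide Y. Mice rather than isolated cells were treated. The sources used here do not give the strain, age or sex of the mice, the doses and times, or the PDAC line. They do not say whether a numbered sample is 1 mouse either, and a p-value here measures only how far such samples differ, which may be technical.

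Fibrillar collagens (types I, II, III, V, XI, XXIV and XXVII) are secreted as procollagens, trimmed at both ends, and packed side by side into fibrils that lysyl oxidases cross-link. Type IV collagen does not form fibrils but joins end to end into the sheet of basement membranes, which also carry types XV and XVIII, multiplexins whose C-terminal fragments include endostatin. In the alveolus the endothelial and epithelial basement membranes are fused over much of the surface where gas is exchanged, and fibroblasts lay down the interstitial fibrils.

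The starts of Col15a1, Col18a1 and Col3a1 are shown because these genes carried the changes in capillary cells and the most calls between groups. Each sequence is the 250 bases before a RefSeq transcription start in the build GRCm38.p6, printed 5′ to 3′ on the gene's strand. The build differs from the mm39 of the files, so the coordinates serve only for these windows. Capitals mark matches to 4 motifs, on either strand and with overlaps allowed. The TATA box was searched as TATAAA. For the CCAAT box the search was for those letters. The GC box was spelled GGGCGG, and the site of AP-1 was spelled TGANTCA. The Col15a1 window lies at chr4:47207762-47208011 on the plus strand. The Col18a1 windows lie on the minus strand at chr10:77166531-77166780 for the start farther upstream and at chr10:77113706-77113955 for the downstream start. The Col3a1 window lies at chr1:45311288-45311537 on the plus strand.
Col15a1: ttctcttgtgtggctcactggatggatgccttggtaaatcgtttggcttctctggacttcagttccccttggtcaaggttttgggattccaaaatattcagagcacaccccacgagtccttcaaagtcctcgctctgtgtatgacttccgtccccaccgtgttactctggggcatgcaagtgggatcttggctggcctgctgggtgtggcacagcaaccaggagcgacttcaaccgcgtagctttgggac
Col18a1, upstream start: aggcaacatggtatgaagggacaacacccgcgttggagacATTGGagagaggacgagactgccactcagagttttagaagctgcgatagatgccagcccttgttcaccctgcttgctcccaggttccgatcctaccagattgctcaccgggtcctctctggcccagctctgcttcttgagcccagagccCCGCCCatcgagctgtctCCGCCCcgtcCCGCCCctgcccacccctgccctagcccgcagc
Col18a1, downstream start: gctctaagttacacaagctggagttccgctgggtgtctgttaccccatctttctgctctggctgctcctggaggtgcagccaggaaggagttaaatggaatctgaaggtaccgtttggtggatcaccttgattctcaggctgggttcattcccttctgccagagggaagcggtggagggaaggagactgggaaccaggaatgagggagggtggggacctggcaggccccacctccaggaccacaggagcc
Col3a1: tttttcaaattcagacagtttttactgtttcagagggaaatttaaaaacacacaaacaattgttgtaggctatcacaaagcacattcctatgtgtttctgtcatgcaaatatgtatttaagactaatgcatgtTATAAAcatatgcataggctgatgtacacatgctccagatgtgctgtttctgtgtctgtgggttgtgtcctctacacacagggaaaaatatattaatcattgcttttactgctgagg

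The Col15a1 window and the downstream Col18a1 window held no match to any of the 4 motifs. The upstream Col18a1 window held 1 CCAAT box and 3 GC boxes, and the Col3a1 window held 1 TATA box. The Col3a1 window was 35.2% G or C, against 53.6% for Col15a1, 57.6% and 62% for Col18a1, and a median of 52.4% over all windows. RefSeq windows were found for 35 of the 44 collagen genes, 38 windows in all. A GC box was in 22 of these 38 windows (57.9%) and in 32.7% of all 32851 windows. The other motifs were in 5 collagen windows for the TATA box (13.2%, against 12.4% of all windows), 13 for the CCAAT box (34.2%, against 33.85%) and 1 for the AP-1 site (2.63%, against 6.75%). A match is a description of letters and not of a bound site. Some collagen genes are also direct neighbours in that build. Col4a1 and Col4a2 start 21 bases apart on opposite strands of chromosome 8, with transcribed ends that share 22 bases, and Col4a6 and Col4a5 start 1343 bases apart on the X chromosome. The counting tool and its use of strand are not given, so reads from such shared ends cannot be assigned with certainty.

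Samples held 10003796 to 32580698 transcripts. Cell names include the sublibrary and were all unique, while 18900 cells shared the rest of the name with another cell. Vehicle-PDAC sample 2 held 0 annotated cancer cells among 9157 cells, although its label says that PDAC cells were seeded, while vehicle samples 1 to 3 held 2, 1 and 1. Results against vehicle-PDAC therefore rest on a group with 1 sample in which cancer cells were found. In 21 of the 22 types the type's own marker list was higher than in any other type. The exception was the cancer cells, which ranked 4 for a list of carcinoma keratins and related epithelial genes, with club cells highest.

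Collagen genes gave 706965 of the 271140315 transcripts, or 0.261%, and between 0.146% and 0.36% of the transcripts of a sample. Fibroblasts, smooth muscle cells and pericytes held 82.3% of all collagen transcripts and were 25.4% of the cells. Alveolar fibroblasts alone held 55.5% and adventitial fibroblasts 24.0%. Endothelial cells held 6.41% (15.9% of the cells), epithelial and mesothelial cells 5.20% (7.24%), leukocytes 4.33% (51.1%) and cancer cells 1.76% (0.388%). Fibrillar genes made up 50.8% of collagen transcripts, basement membrane genes 23.3% and the others 25.9%. The makeup differed by type. Basement membrane genes were 95.1% of the collagen transcripts in alveolar type 1 cells, 89.0% in general capillary cells, 84.8% in aerocytes (the capillary cells of gas exchange) and 70.1% in alveolar type 2 cells, while fibrillar genes were 68.7% of those in adventitial fibroblasts. Shares of transcripts move with cell number as well as with RNA per cell, and the sums do not tell these apart.

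Levels are given as CPM, transcripts of the gene scaled by TMM to a common total for the type, in each sample with 20 cells of the type, as mean ± SD over samples. Alveolar type 1 and club cells had n = 2 such samples, cancer cells 5, mesothelial and lymphatic endothelial cells 14, and each other type 15. The annotation was made by clustering on all genes, so order between types is a description with no test. Of the 44 genes, 29 reached a mean of 20 CPM in some type and 15 did not, and those 15 had 4807 transcripts together. Adventitial fibroblasts were the highest type for 11 of the 29 genes, alveolar type 1 cells for 4, peribronchial fibroblasts for 3, smooth muscle cells and pericytes for 3, alveolar fibroblasts for 2 and ciliated cells for 2. Cancer, club, general capillary and lymphatic endothelial cells each had 1.

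**Figure D1:**
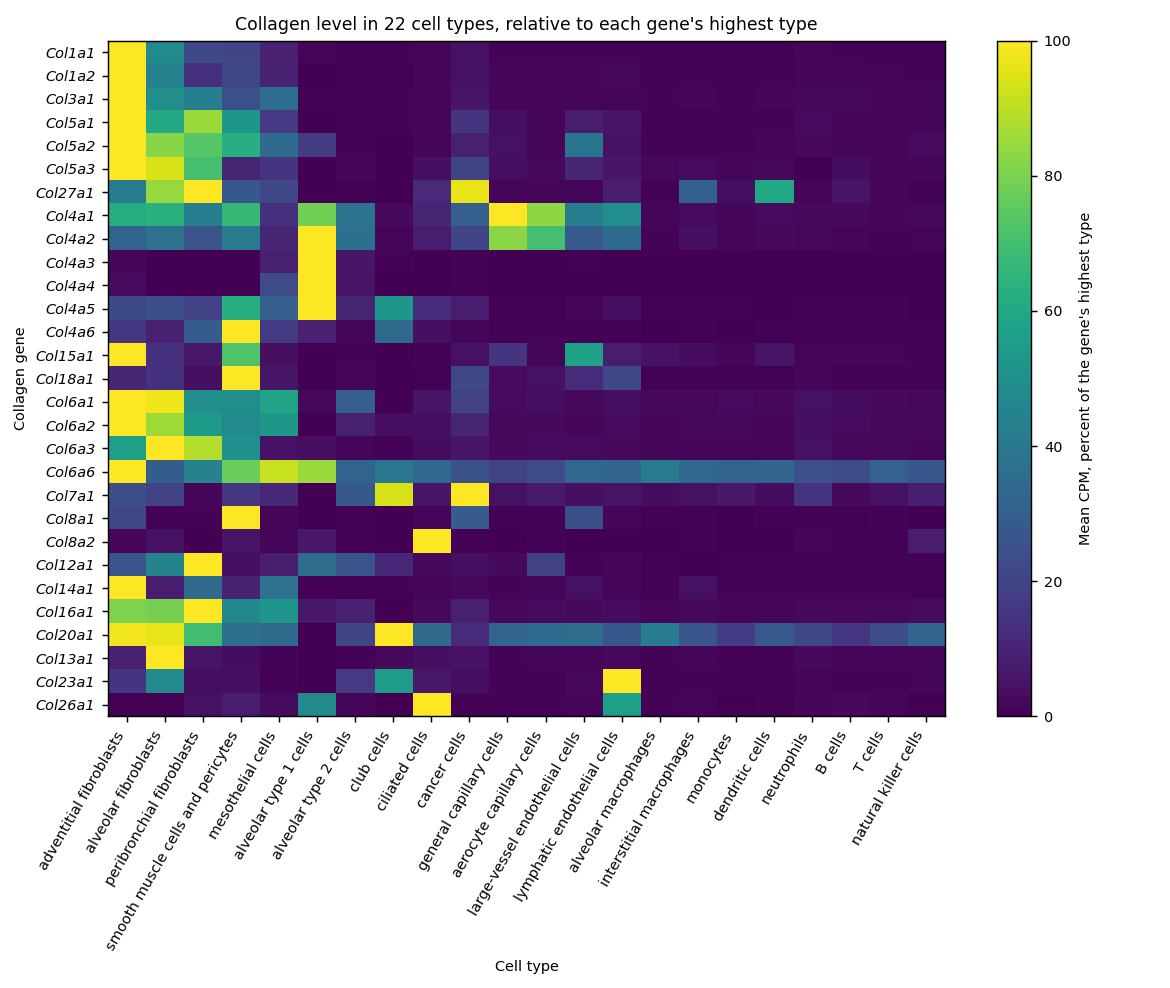
Mean level of 29 collagen genes in 22 cell types. Rows are genes in their classes, columns are cell types, and colour is the mean CPM over samples as a percent of the gene's own highest type, so that colours compare types within a gene and not genes with each other. Bright colours are high values. Fibrillar genes are brightest in the fibroblast columns, type IV genes in alveolar type 1, smooth muscle and capillary columns, and Col8a2 and Col26a1 in ciliated cells.

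Among fibrillar collagens, 7 of 11 reached 20 CPM, and 6 of these 7 were highest in adventitial fibroblasts, the fibroblasts of the sheath around airways and vessels. Summed over the class, adventitial fibroblasts had 7471 ± 1203 CPM, alveolar fibroblasts 3890 ± 899, peribronchial fibroblasts 2792 ± 574, smooth muscle cells and pericytes 2095 ± 360 and mesothelial cells 1603 ± 389. Alveolar type 2 cells had 69.8 CPM. Col1a1, one of the chains of type I collagen, had 1504 ± 269 CPM in adventitial fibroblasts (lowest 1073, highest 1851), 714 ± 176 in alveolar and 334 ± 92.8 in peribronchial fibroblasts. Its partner chain Col1a2 had 2108 ± 309 in adventitial and 929 ± 154 in alveolar fibroblasts and 452 ± 126 in smooth muscle cells and pericytes. Col3a1, the chain of type III collagen, which is found in elastic tissues, had 2669 ± 633 in adventitial fibroblasts (1928 to 3625), 1324 ± 481 in alveolar and 1138 ± 322 in peribronchial fibroblasts. In mesothelial cells it had 950 ± 286 (n = 14).

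The type V chains, which seed fibrils and limit their width, were spread more evenly over fibroblasts. Col5a1 had 556 ± 98.7 CPM in adventitial, 472 ± 115 in peribronchial and 335 ± 54.7 in alveolar fibroblasts. Col5a2 had 528.5 ± 79.1, 389.5 ± 122 and 435 ± 88.2 in the same types. Col5a3 had 45.9 ± 8.80 in adventitial and 43.1 ± 16.5 in alveolar fibroblasts, which differ by less than their spread. Col27a1, a fibrillar collagen best known from cartilage, was the exception to the adventitial order. It had 122 ± 33.2 in peribronchial fibroblasts, 118.5 ± 25.9 in cancer cells (n = 5), 103 ± 21.3 in alveolar fibroblasts and 73.1 ± 25.0 in dendritic cells, values whose spreads overlap.

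All 8 basement membrane genes reached 20 CPM. Their sum was 6169 ± 844 CPM in alveolar type 1 cells (n = 2), the thin cells that line most of the alveolar surface, and 2402 ± 269 in smooth muscle cells and pericytes. General capillary cells had 1683 ± 478 and aerocytes 1412 ± 398, while interstitial macrophages had 83.6 and alveolar macrophages 36.6. The 6 type IV chains work in set trimers, and the pairs followed different cell types. Col4a1 and Col4a2, the chains of ubiquitous basement membranes, were at high levels in endothelial, epithelial and mesenchymal types. Col4a1 had 884 ± 249 in general capillary cells (632 to 1456), 739 ± 202 in aerocytes and 698 ± 238 in alveolar type 1 cells (n = 2). Col4a2 had 899 ± 108 in alveolar type 1 cells (n = 2), 744 ± 201 in general capillary cells and 634 ± 182 in aerocytes. Neighbours in these orders lay within their spreads. Smooth muscle cells and pericytes followed with 591 ± 97.9 of Col4a1, alveolar fibroblasts with 564 ± 128.5 and adventitial fibroblasts with 549 ± 122. Alveolar fibroblasts, the most numerous of these cells, held 31274 of the Col4a1 transcripts.

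Col4a3 and Col4a4, chains of the specialised network of alveolar and glomerular basement membranes, peaked in alveolar type 1 cells, where the 2 samples had 1700 and 2438 CPM of Col4a3 and 1847 and 1978 of Col4a4. Mesothelial cells had 194 ± 90.8 of Col4a3 and 444 ± 121 of Col4a4, and alveolar type 2 cells 126 ± 28.4 and 106 ± 22.4. Col4a5, which joins that network and also pairs with Col4a6, had 549 ± 264 in alveolar type 1 cells (n = 2), 347 ± 92.5 in smooth muscle cells and pericytes and 289 ± 48.7 in club cells (n = 2). Col4a6, typical of smooth muscle basement membranes, had 462 ± 190 in smooth muscle cells and pericytes (226 to 900), 159 ± 67.0 in club cells and 135 ± 41.8 in peribronchial fibroblasts.

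The balance within each pair of neighbouring genes can be compared across types, since gene length cancels. Pooled over samples, the ratio of Col4a2 to Col4a1 transcripts ran from 0.495 in T cells, on 53 and 107 transcripts, and 0.513 in adventitial fibroblasts to 1.29 in alveolar type 1 cells. Col4a4 to Col4a3 was 0.91 in alveolar type 1 cells and 2.175 in mesothelial cells. Col4a6 to Col4a5 was 0.096 in alveolar type 2 cells, 0.135 in alveolar type 1 cells and 1.33 in smooth muscle cells and pericytes. Across the 22 types, whose levels share the same samples and libraries, Spearman's rho was 0.975 for Col4a1 with Col4a2, 0.885 for Col4a5 with Col4a6 and 0.727 for Col4a3 with Col4a4. Neighbouring pairs of other classes had 0.891 (Col6a1 with Col6a2) and 0.767 (Col3a1 with Col5a2). Pairs that do not neighbour each other had 0.710 (Col1a1 with Col1a2), 0.703 (Col1a1 with Col3a1), 0.719 (Col6a1 with Col6a3) and 0.736 (Col15a1 with Col18a1).

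**Figure D2:**
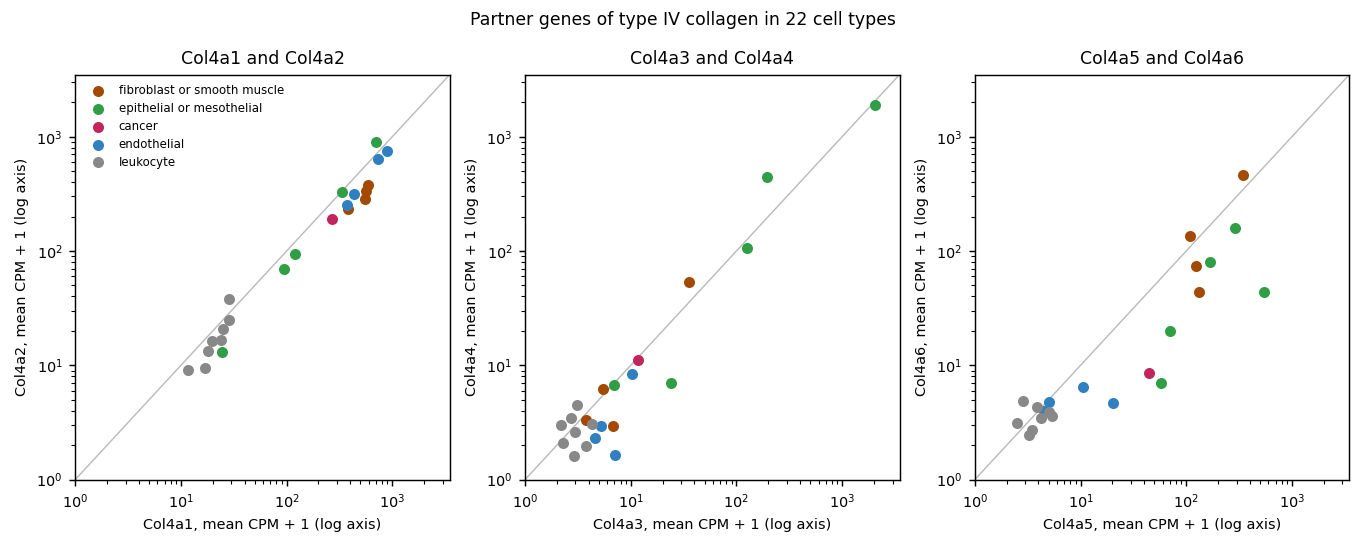
Levels of the 3 head-to-head type IV gene pairs, one panel a pair. Each point is the mean of a cell type, in CPM + 1 on log axes, coloured by lineage, and the grey line marks equal CPM. Col4a1 and Col4a2 lie along the line in every lineage, while in the pair of Col4a5 and Col4a6 alveolar type 1 and type 2 cells fall to the Col4a5 side, with Col4a6 to Col4a5 ratios of 0.135 and 0.096.

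The multiplexins followed other cells. Col15a1, which links basement membranes to the fibrils beneath, had 196 ± 48.1 CPM in adventitial fibroblasts, 142 ± 44.7 in smooth muscle cells and pericytes, 113 ± 58.4 in large-vessel endothelium and 29.1 ± 33.3 in general capillary cells, where the SD exceeded the mean. Col18a1, the source of endostatin, had 480 ± 96.9 in smooth muscle cells and pericytes, 105 ± 30.5 in cancer cells (n = 5), 102 ± 53.9 in lymphatic endothelium (n = 14) and 71.1 ± 11.1 in alveolar fibroblasts.

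Of the 25 other collagens, 14 reached 20 CPM. Type VI chains form beaded filaments around cells. Col6a1 had 318 ± 56.4 CPM in adventitial and 310 ± 49.2 in alveolar fibroblasts, and Col6a2 318 ± 59.8 and 272 ± 44.4. Col6a3 was higher in alveolar fibroblasts (508 ± 97.1) and peribronchial fibroblasts (450 ± 97.0) than in adventitial fibroblasts (287 ± 46.8). Col6a6 had 58.2 ± 12.2 in adventitial fibroblasts, 53.3 ± 33.3 in mesothelial cells and 49.5 ± 8.8 in alveolar type 1 cells.

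Fibril-associated collagens sit on the surface of fibrils. Col14a1 had 630 ± 132 CPM in adventitial fibroblasts, 236 ± 76.6 in mesothelial cells and 219 ± 89.8 in peribronchial fibroblasts. Col12a1 had 217 ± 131 in peribronchial and 97.2 ± 25.7 in alveolar fibroblasts. Col16a1 had 100.4 ± 44.1 in peribronchial, 81.1 ± 9.33 in adventitial and 79.7 ± 11.7 in alveolar fibroblasts, within 1 SD of each other. Col20a1 had 22.8 ± 15.1 in club cells (n = 2, from 4 transcripts), 22.4 ± 5.61 in adventitial and 22.01 ± 5.60 in alveolar fibroblasts.

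Several of the remaining genes were close to 1 type. Col13a1, a transmembrane collagen of cell adhesions, had 452 ± 80.8 CPM in alveolar fibroblasts, 11.02 times the next type (adventitial fibroblasts, 41.0 ± 11.2). Col8a2, a short-chain collagen that forms hexagonal lattices, had 99.6 ± 24.4 in ciliated cells (69.5 to 147), 13.4 times the next type. Its partner Col8a1 was instead highest in smooth muscle cells and pericytes (79.7 ± 51.8), followed by cancer cells (23.0 ± 10.9). Col23a1, a transmembrane collagen that can be shed, had 770 ± 224 in lymphatic endothelium (487 to 1234, n = 14), 425 ± 206 in club cells (n = 2) and 369 ± 80.2 in alveolar fibroblasts. Col26a1 had 29.5 ± 18.2 in ciliated cells. Col7a1, which forms anchoring fibrils under epithelia, had 30.7 ± 6.04 in cancer cells and 28.9 ± 6.52 in club cells, which differ by less than their spread.

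The seeded cancer cells (308 cells in 5 samples with at least 20) carried basement membrane and fibrillar genes side by side, 43.0% and 38.1% of their collagen transcripts. Col4a1 had 267 ± 48.1 CPM (186 to 310) and Col4a2 188 ± 32.2. Among fibrillar genes Col3a1 had 159 ± 59.2, Col1a2 96.9 ± 12.5, Col5a1 83.4 ± 8.80 and Col1a1 66.0 ± 21.5. As a measure of stray RNA, the leukocyte type with the highest mean was used for each gene. The cancer cell mean was 3.21 times it for Col1a1, 3.41 times for Col1a2 and 2.64 times for Col3a1, but 15.2 times for Col18a1 and 31.4 times for Col8a1. Col11a1, a fibrillar chain most familiar from cartilage, had 9.27 ± 3.56 CPM in cancer cells, the highest of all types and 11.8 times the highest leukocyte mean. Cancer cells lay in too few samples of some groups for a comparison between treatments.

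Between groups, summed counts of all genes were compared per cell type with edgeR's quasi-likelihood test, and a pair of a collagen gene and a cell type was called at a Benjamini-Hochberg adjusted p under 0.05. Fold changes are log2 values of the fit, with their SE. The filter on low counts kept 38 collagen genes in at least 1 of 19 types, and 6 in none. Alveolar type 1, club and cancer cells had too few samples, and lymphatic and mesothelial cells could not enter comparisons with 6-OHDA-PDAC. Without PDAC cells, 6-OHDA against vehicle called 1 of 234 collagen pairs (0.427%, against 0.0669% of all gene and type pairs), and BIBO3304 against vehicle called 1 of 234 (0.307% of all). With PDAC cells, 6-OHDA against vehicle called 3 of 212 (1.42%), all lower, against 0.405% of all pairs. BIBO3304 against vehicle there called 0 of 234 (0.0317% of all), with 23 at an unadjusted p under 0.05 (9.83%, against 7.76% of all pairs), and DESeq2 also called 0.

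The larger counts were in lungs with PDAC cells against lungs without. Under vehicle 0 of 234 collagen pairs were called (0.00176% of all pairs), with 28 at an unadjusted p under 0.05 (11.97%, against 4.91% of all pairs) and 0 by DESeq2. Under 6-OHDA 5 of 212 were called (2.36%), 2 higher and 3 lower, against 0.729% of all pairs. Under BIBO3304 11 of 234 were called (4.70%), 9 higher and 2 lower, a share near the 4.25% of all pairs. The median log2 change of collagen pairs in that comparison was 0.06, and over all genes the medians of the types averaged within 0.01 of 0. By class, 6 fibrillar pairs were higher and 1 lower of 73, with a median of 0.59 and 56 above 0. All 6 were the gene Col3a1, in as many types, so the count of calls describes that gene. In alveolar macrophages 29 of 30 collagen pairs were above 0 with 0 called (median 0.89, against 0.009 over all genes). In alveolar fibroblasts 9 of 34 were above 0, with a median of −0.14. Of 72 basement membrane pairs 3 were higher (median −0.05), and 1 of 89 other pairs was lower. The difference between classes was not tested. The difference between the effects of PDAC cells under 6-OHDA and under vehicle was called for 0 of 212 pairs (0.00744% of all), with 19 at an unadjusted p under 0.05 (8.96%, against 5.12% of all pairs) and 0 by DESeq2. The same difference for BIBO3304 was called for 1 of 234 (0.413% of all). These comparisons share samples, and their values are set side by side without a test of overlap.

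In general capillary cells both multiplexins were higher with PDAC cells in 6-OHDA and in BIBO3304 lungs. Over all genes, 0.27% were called in this type under 6-OHDA and 4.49% under BIBO3304. Col15a1 in general capillary cells had 117 and 53.8 CPM in the 6-OHDA-PDAC samples and 4.13, 8.71 and 1.63 in the 6-OHDA samples. The groups did not overlap, and the transcripts behind them were 134 and 9. The log2 change was 4.15 (SE 0.557, edgeR adjusted p = 0.000489), and the call was kept on leaving out each of the 15 samples in turn. Col18a1 had 50.2 and 32.8 CPM against 1.38, 1.74 and 4.88, from 65 and 5 transcripts. Its log2 change was 3.93 (SE 0.611, edgeR adjusted p = 0.00231), and without 6-OHDA-PDAC sample 1 the adjusted p was 0.0696.

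Under BIBO3304 the same genes were called in these cells. Col15a1 had 56.8 and 79.2 CPM in BIBO3304-PDAC and 13.4, 13.8 and 4.19 in BIBO3304, a log2 change of 2.64 (SE 0.443, edgeR adjusted p = 0.00663). Col18a1 had 24.9 and 48.1 against 1.28, 2.17 and 6.28, a log2 change of 3.37 (SE 0.521, edgeR adjusted p = 0.00663). All PDAC samples lay above all samples without, but without BIBO3304-PDAC sample 2 the adjusted p was 0.196 for each gene. Under vehicle the changes did not pass. Col15a1 had 31.3 and 9.72 in vehicle-PDAC, sample 2 of which held no cancer cell, and 11.4, 15.5 and 16.1 in vehicle, groups that overlap (log2 change 0.76). Col18a1 had 15.95 and 9.72 against 3.79, 6.197 and 4.23, which do not overlap (log2 change 1.65, edgeR adjusted p of 1 to the digits kept). The difference between the PDAC effects under 6-OHDA and under vehicle was 3.39 for Col15a1 (edgeR adjusted p = 0.531) and did not pass. Without the filter on low counts it did (edgeR adjusted p = 6.656e-05).

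In the -PDAC samples the transcripts came from several cells, while most cells had none. Col15a1 was detected in 41 of 450 and 25 of 369 general capillary cells of the 6-OHDA-PDAC samples, with at most 10 transcripts in a cell, and in 3 of 427, 5 of 414 and 1 of 419 cells of the 6-OHDA samples. In BIBO3304-PDAC it was in 27 of 509 and 17 of 321 cells, and in BIBO3304 in 17 of 610, 20 of 677 and 7 of 901. Col18a1 was in 20 and 16 cells of 6-OHDA-PDAC and in 1, 1 and 3 of 6-OHDA. Both genes were in 9 and 4 cells of 6-OHDA-PDAC, 4 and 1 of BIBO3304-PDAC and 7 and 0 of vehicle-PDAC. In 6-OHDA and BIBO3304 no cell had both, and in vehicle 1, 0 and 1 had. Whether the 2 genes mark the same cells was not tested. Cells of the 6-OHDA-PDAC samples were somewhat deeper, with medians of 1487.5 and 1578 transcripts against 1275, 1162.5 and 1168. Markers of the types richest in these genes were summed in the same cells. In general capillary cells the summed level of the 7 smooth muscle and pericyte markers was 8.69 to 28.3 CPM over all groups. The 6 adventitial fibroblast markers, among them Ly6a and Cd34, which endothelium also expresses, summed to 312.5 to 396 CPM in 6-OHDA and 378 to 389 in 6-OHDA-PDAC, and to 270.5 to 299.5 in BIBO3304 and 393.5 to 438.5 in BIBO3304-PDAC. The 5 large-vessel endothelial markers summed to 153 to 169 CPM in 6-OHDA and 207 to 352 in 6-OHDA-PDAC, without overlap. Most of that sum was Vwf, with 132 to 157 and 179.5 to 331 CPM, while Gja5, Bmx, Slc6a2 and Vcam1 each overlapped between these groups. In BIBO3304 the 5 markers summed to 161.5 to 243 and in BIBO3304-PDAC to 155 to 255. In vehicle they summed to 143 to 195 and in vehicle-PDAC to 193 to 299. Carcinoma markers summed to at most 36.8 CPM, with Cldn4 at 0, and the cells' own 5 markers to 2246 to 3602. On few transcripts, some carcinoma markers were higher in BIBO3304-PDAC than in BIBO3304 without overlap. Krt18 had 4.157 to 14.14 against 0 to 0.638 CPM, Epcam 6.928 to 8.487 against 1.811 to 3.189, and Krt19 5.543 to 11.32 against 4.465 to 4.713. Muc1 did not overlap either, while Krt8 did. Between 6-OHDA and 6-OHDA-PDAC each of these markers overlapped. The part of transcripts of these other types in the Col15a1 and Col18a1 differences was not tested.

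Aerocytes had a smaller number of such transcripts. Col18a1 there had 41.5 and 142 CPM in BIBO3304-PDAC and 2.66, 4.03 and 3.46 in BIBO3304, from 18 and 5 transcripts, a log2 change of 4.39 (SE 0.895, edgeR adjusted p = 0.0150). Without BIBO3304-PDAC sample 2 the adjusted p was 0.547, and without BIBO3304 sample 2 it was 0.0626. In 6-OHDA-PDAC Col18a1 had 49.3 and 42.9, which did not pass. Col15a1 had 0 transcripts in the 108 and 93 aerocytes of the 6-OHDA-PDAC samples, which allows shares of cells with a captured transcript of up to 2.78% and 3.23%. Those limits cover counting error only and say nothing of cells whose transcripts were not captured. The type IV genes moved less. Col4a1 in general capillary cells had 1456 and 1270 CPM in 6-OHDA-PDAC and 820, 648 and 939 in 6-OHDA, groups that do not overlap, with a log2 change of 0.76 and an edgeR adjusted p of 0.0884.

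**Figure D3:**
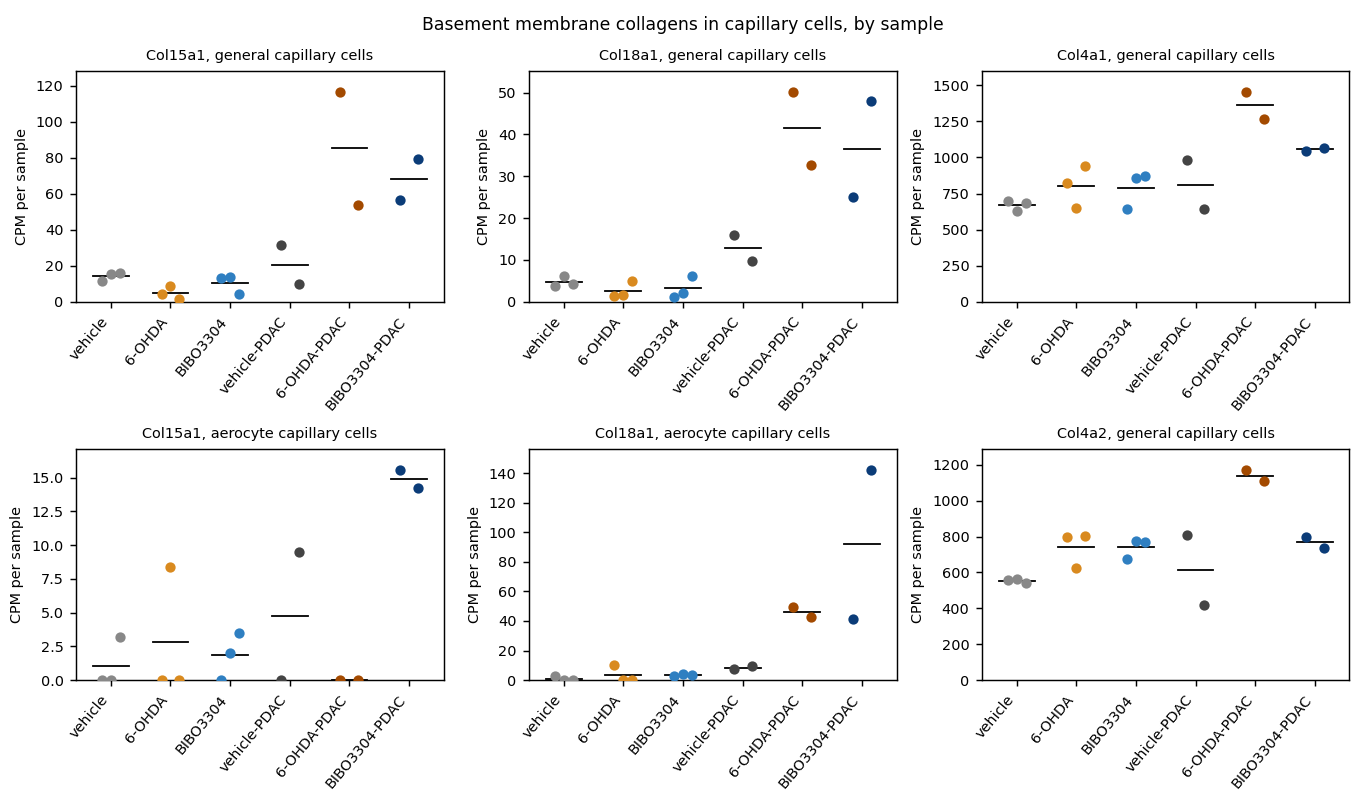
Levels of Col15a1, Col18a1, Col4a1 and Col4a2 in general capillary cells and of Col15a1 and Col18a1 in aerocytes, in CPM by group. Each point is a sample and each bar the group mean. Col15a1 in general capillary cells reaches 117 and 53.8 CPM in 6-OHDA-PDAC against at most 8.71 in 6-OHDA, while Col4a1 is 648 CPM or more in the same samples.

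Interstitial macrophages, the macrophages of the lung's connective tissue, had lower levels of 3 collagen genes. Much of the transcriptome of this type was called in the same comparisons, 18.0% of all its genes for PDAC cells under BIBO3304, 9.22% under 6-OHDA and 3.52% for 6-OHDA with PDAC cells. Col14a1 had 11.3 and 8.28 CPM in BIBO3304-PDAC and 102.5, 66.7 and 52.4 in BIBO3304, groups far apart. The log2 change was −2.93 (SE 0.457, edgeR adjusted p = 0.000231), kept on leaving out each of the 15 samples. Under 6-OHDA it had 5.86 and 3.94 against 38.6, 11.6 and 21.9, a log2 change of −2.14 (SE 0.516, edgeR adjusted p = 0.0111). That call was lost without 6-OHDA-PDAC sample 1 (0.0583), sample 2 (0.123) or 6-OHDA sample 1 (0.122). Vehicle-PDAC had 15.3 and 21.4.

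Col27a1 had 5.86 and 10.52 CPM in 6-OHDA-PDAC, 32.4 and 49.9 in vehicle-PDAC, and 49.8, 49.9 and 74.6 in vehicle. Against vehicle-PDAC the log2 change was −2.31 (SE 0.512, edgeR adjusted p = 0.0119), lost without 6-OHDA-PDAC sample 1 (0.204) or 2 (0.0745) or vehicle-PDAC sample 2 (0.111). Against 6-OHDA, with 57.9, 31.4 and 30.7, it was −2.29 (SE 0.519, edgeR adjusted p = 0.00718), lost without 6-OHDA-PDAC sample 1 (0.121). Under BIBO3304 the samples overlapped, with 25.7 and 5.52 against 61.5, 25.6 and 50.1 (log2 change −1.71, SE 0.526, edgeR adjusted p = 0.0288), and the call was lost without BIBO3304-PDAC sample 2 (0.436), BIBO3304 sample 1 (0.104) or sample 3 (0.0596), and in a fit of the compared groups alone (0.0504).

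Col4a2 had 10.3 and 11.8 CPM in 6-OHDA-PDAC and 43.9 and 35.6 in vehicle-PDAC, a log2 change of −1.84 (SE 0.418, edgeR adjusted p = 0.0132). Without 6-OHDA-PDAC sample 1 or 2 or vehicle-PDAC sample 1 the adjusted p was 0.181, 0.131 and 0.0561. Against 6-OHDA, with 49.6, 24.8 and 52.6, it was also −1.84 (SE 0.427, edgeR adjusted p = 0.00869), lost without 6-OHDA-PDAC sample 1 (0.102) or 2 (0.077). The makeup of the annotated cells moved alongside. Their own 5 markers summed to 664 to 762 CPM in 6-OHDA and 473 to 493 in 6-OHDA-PDAC, and to 1044 to 1117 in BIBO3304 and 431 to 487 in BIBO3304-PDAC. The 5 dendritic cell markers summed to 65.7 to 118.5 in 6-OHDA and 13.8 to 21 in 6-OHDA-PDAC, and the 6 adventitial fibroblast markers to 30.7 to 85.4 and 28.9 to 34.2. The part of these shifts in the collagen values was not tested.

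**Figure D4:**
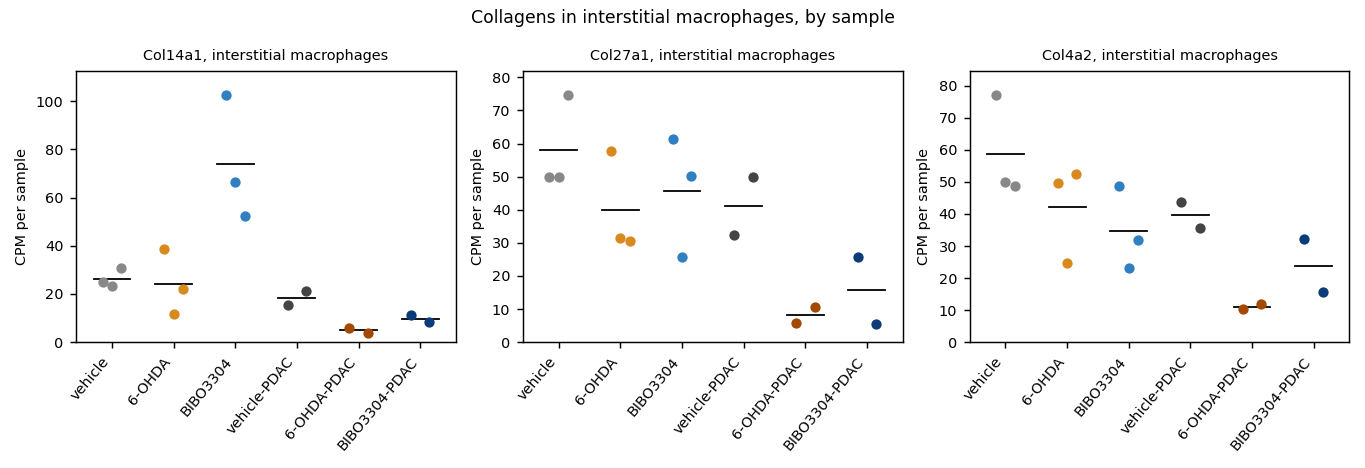
Levels of Col14a1, Col27a1 and Col4a2 in interstitial macrophages, in CPM by group. Each point is a sample and each bar the group mean. Col14a1 falls from 52.4 CPM or more in BIBO3304 to at most 11.3 in BIBO3304-PDAC, and Col27a1 is lowest in 6-OHDA-PDAC at 5.86 and 10.52.

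Col3a1 gave most of the fibrillar calls, and all 6 were in types other than fibroblasts. In BIBO3304-PDAC against BIBO3304 it was higher in all 12 leukocyte, endothelial and epithelial types tested, with log2 changes of 0.59 to 2.75 and a median of 1.71. The types share the same samples and libraries, so they do not count as independent of each other. Monocytes had 41.7 and 97.1 CPM against 8.52, 5.77 and 24.0 (log2 change 2.75, SE 0.532, edgeR adjusted p = 0.00222). B cells had 68.5 and 132 against 17.4, 5.89 and 37.6 (2.42, SE 0.482, edgeR adjusted p = 0.00861). Alveolar type 2 cells had 31.3 and 85.4 against 9.13, 6.14 and 18.6 (2.28, SE 0.432, edgeR adjusted p = 0.00605). No group overlapped in these 3 types.

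Large-vessel endothelium had 76.2 and 176 CPM of Col3a1 in BIBO3304-PDAC against 22.8, 16.4 and 23.0 (2.46, SE 0.439, edgeR adjusted p = 0.0261). General capillary cells had 49.9 and 139 against 26.2, 11.2 and 36.7 (1.87, SE 0.446, edgeR adjusted p = 0.0208), and interstitial macrophages 80.4 and 74.5 against 20.5, 10.3 and 50.1 (1.49, SE 0.418, edgeR adjusted p = 0.0178). All 6 calls were lost without BIBO3304-PDAC sample 2, the shallower of the pair at 10916216 transcripts. The adjusted p was then 0.198 in monocytes, 0.362 in B cells, 0.393 in alveolar type 2 cells, 0.705 in large-vessel endothelium, 0.540 in general capillary cells and 0.114 in interstitial macrophages. Leaving out BIBO3304 sample 2 also ended the calls in B cells (0.0634), large-vessel endothelium (0.262), general capillary cells (0.0894) and interstitial macrophages (0.086). The large-vessel call was further lost without BIBO3304 sample 1 (0.0942), BIBO3304 sample 3 (0.0655) or vehicle sample 3 (0.0548), and the macrophage call without BIBO3304-PDAC sample 1 (0.0707) or BIBO3304 sample 1 (0.0659). A fit of the compared groups alone ended the call in general capillary cells (0.0656).

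The fibroblasts, smooth muscle cells and mesothelium, where Col3a1 was highest, had lower log2 changes. Col3a1 was higher in all 5 fibroblast, smooth muscle and mesothelial types of that comparison, with a median log2 change of 0.46 and 0 calls. Alveolar fibroblasts had between 750 and 2122 CPM over all samples, and their log2 change was 0.73 (edgeR adjusted p = 0.0797). Under 6-OHDA, Col3a1 was higher with PDAC cells in 11 of 12 other types (median 0.74) and in 4 of 4 fibroblast, smooth muscle and mesothelial types, and under vehicle in 9 of 12 (median 0.46) and 5 of 5 (median 0.44). Without PDAC cells the 12 other types were all lower in 6-OHDA (median −0.46) and all lower in BIBO3304 (median −0.61) than in vehicle, while the 5 fibroblast, smooth muscle and mesothelial types were all higher in each. None of those pairs passed, and the types of a comparison share the same samples.

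Other genes with high levels in fibroblasts were also counted in these types. Pooled over leukocytes, Col3a1 was at 23.4, 9.90 and 26.6 CPM in BIBO3304 and 42.9 and 68.8 in BIBO3304-PDAC. Col1a1 there had 9.79, 3.45 and 8.94 against 14.06 and 17.7, and Col1a2 had 15.3, 7.66 and 19.1 against 25.1 and 32.2. These groups did not overlap either, so the higher level was not limited to Col3a1. The ratio of Col1a1 to Col3a1 was 0.350 in leukocytes (0.206 to 0.449 in single samples), 0.355 in general capillary cells, 0.532 in alveolar fibroblasts (0.443 to 0.804) and 0.561 in adventitial fibroblasts. That of Col1a2 to Col3a1 was 0.660, 0.7355, 0.715 and 0.790 in the same order. In B cells the 6 alveolar fibroblast markers summed to 17.7 to 69.4 CPM in BIBO3304 and 45.6 to 110 in BIBO3304-PDAC, and the 5 interstitial macrophage markers to 2.89 to 7.45 and 79.9 to 132. In monocytes the fibroblast markers summed to 11.98 to 65.1 and 50.9 to 55.2. The median cell of all types held 2631, 4846 and 3534 transcripts in BIBO3304 and 2417 and 1623 in BIBO3304-PDAC. The part of RNA from other cells in the Col3a1 differences was not tested.

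B cells were also the type in which the effect of PDAC cells on Col3a1 differed between BIBO3304 and vehicle. Vehicle B cells had 53.8, 78.5 and 51.8 CPM and vehicle-PDAC 32.0 and 65.8, so that the difference of the log2 changes was 2.78 (SE 0.667, edgeR adjusted p = 0.0404). It was lost in a fit of the compared groups alone (0.0587), with the replicate block (0.0546) and on leaving out 6 of the 15 samples: BIBO3304-PDAC sample 2 (0.379), vehicle-PDAC sample 1 (0.208), vehicle sample 2 (0.141), BIBO3304 sample 2 (0.115), BIBO3304 sample 1 (0.0887) and 6-OHDA sample 3 (0.0528).

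**Figure D5:**
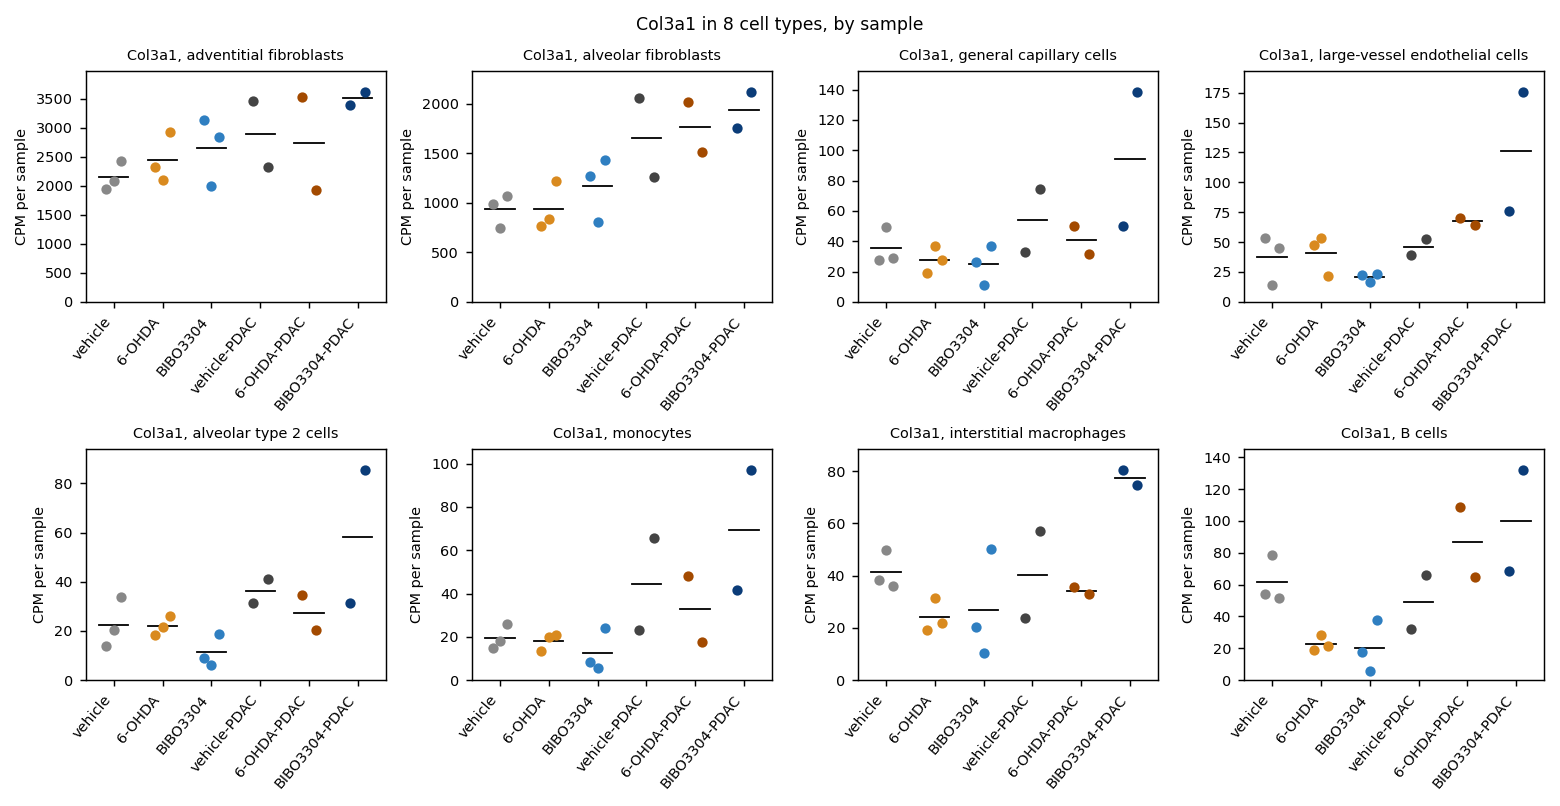
Level of Col3a1 in 8 cell types, in CPM by group. Each point is a sample and each bar the group mean, with an axis of its own for each type. In B cells and monocytes the BIBO3304 samples are at or below 37.6 CPM and the BIBO3304-PDAC samples at or above 41.7, while alveolar fibroblasts range from 750 to 2122 CPM.

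Fibroblasts gave 2 calls. Col5a3 in alveolar fibroblasts had 34.1 and 26.9 CPM in 6-OHDA-PDAC and 75.6 and 77.9 in vehicle-PDAC, a log2 change of −1.34 (SE 0.237, edgeR adjusted p = 0.0319). The groups did not overlap, and the vehicle samples lay between them at 44.0, 38.1 and 43.5. The call was lost without either 6-OHDA-PDAC sample (0.135 and 0.453) or either vehicle-PDAC sample (0.0544 and 0.091). Alveolar fibroblast markers summed to 2316 to 2664 CPM in vehicle-PDAC and 1874 to 1879 in 6-OHDA-PDAC.

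Col23a1 in alveolar fibroblasts had 405, 457 and 485 CPM in BIBO3304 and 274, 217 and 304 in vehicle, a log2 change of 0.75 (SE 0.171, edgeR adjusted p = 0.0392). The groups did not overlap, but the call was lost on leaving out any of 8 samples, with an adjusted p of up to 0.181 (without vehicle sample 2). It was also lost with the replicate block (0.0541) and in a fit of the compared groups alone (0.0759). Large-vessel endothelium gave the only call of 6-OHDA without PDAC cells. Col5a2 there had 284, 283 and 298 CPM in 6-OHDA and 142, 117 and 122 in vehicle, a log2 change of 1.16 (SE 0.240, edgeR adjusted p = 0.0289). Leaving out any of these 6 samples ended the call, with adjusted p-values of 0.0522 to 0.155, as did testing without the filter on low counts (0.110). Its own 5 markers summed to 2113 to 3968 CPM in 6-OHDA and 3272 to 4099 in vehicle.

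The collagen pairs that came nearest where fewer than 3 passed are given as values. For BIBO3304 without PDAC cells, Col4a1 in adventitial fibroblasts had 700, 824 and 714 CPM against 471, 446 and 409 (log2 change 0.75, edgeR adjusted p = 0.0609). Col14a1 there had 875, 843 and 688 against 535, 399 and 526 (0.71, edgeR adjusted p = 0.0768), and in interstitial macrophages 102.5, 66.7 and 52.4 against 24.9, 23.5 and 30.9 (1.46, edgeR adjusted p = 0.111). The adventitial pairs passed with DESeq2 (adjusted p = 0.00325 and 0.00868), without the filter (0.008 and 0.0157) and in a fit of the compared groups alone (0.0260 and 0.0478), and the macrophage pair without the filter (0.0358).

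For 6-OHDA without PDAC cells, Col15a1 in alveolar fibroblasts had 15.5, 27.8 and 27.2 CPM against 44.5, 34.4 and 36.1 (log2 change −0.73, edgeR adjusted p = 0.515). Col4a1 in B cells had a log2 change of −2.28 (edgeR adjusted p = 0.572). Col3a1 in natural killer cells rested on 3 transcripts against 19, a ratio of 0.170 with an exact binomial 95% interval of 0.0322 to 0.576 for counting error only, and an edgeR adjusted p of 0.529. For BIBO3304 with PDAC cells the nearest were Col18a1 in aerocytes (3.23, edgeR adjusted p = 0.288), Col12a1 in alveolar type 2 cells (30.1 and 26.1 against 71.5 and 64.0 CPM, −1.26, edgeR adjusted p = 0.488 and 0.0472 without the filter) and Col3a1 in large-vessel endothelium (1.35, edgeR adjusted p = 0.702).

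For PDAC cells under vehicle the nearest pairs included Col5a3 in alveolar fibroblasts, with 75.6 and 77.9 CPM against 44.0, 38.1 and 43.5 (0.86, edgeR adjusted p = 0.226 and 0.00785 without the filter). Col4a1 in those cells had 890 and 604 against 517, 403 and 466 (0.69, edgeR adjusted p = 0.253), and Col27a1 in adventitial fibroblasts had 27.0 and 29.6 against 64.0, 47.6 and 57.9 (−1.02, edgeR adjusted p = 0.975). Of the vehicle-PDAC samples, 1 held no cancer cell. Differences between effects that did not pass included Col3a1 in B cells for 6-OHDA (2.31, edgeR adjusted p = 0.948) and Col12a1 in alveolar type 2 cells for 6-OHDA (−1.34, edgeR adjusted p of 1 to the digits kept). For BIBO3304 they were Col18a1 in alveolar fibroblasts (−0.79, edgeR adjusted p = 0.0731, and 0.0393 with DESeq2), Col14a1 in adventitial fibroblasts (−1.02, edgeR adjusted p = 0.172, 0.0483 with DESeq2 and 0.0394 without the filter) and Col3a1 in large-vessel endothelium (2.41, edgeR adjusted p = 0.201).

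Genes that fold, cut, bind, degrade or sense collagen were counted in 7 lists. Of their 75 calls over all comparisons, 12 were kept on leaving out each sample in turn. They are those of Mmp14 and Timp1 named here for PDAC cells under 6-OHDA and BIBO3304, of Mrc1 and P3h2 in interstitial macrophages for the same comparisons, Mrc1 there for 6-OHDA with PDAC cells, Lamc1 there under BIBO3304, and Mrc1 in monocytes under BIBO3304. Mmp14 in interstitial macrophages under BIBO3304, Mrc1 outside interstitial macrophages and P4hb in alveolar fibroblasts fall outside the rule for named genes and were chosen after their values were seen. All lists together had 44 calls in 613 tests (7.18%) for PDAC cells under BIBO3304, of which 37 were lost without BIBO3304-PDAC sample 2, against 4.25% of all pairs. There were 15 in 550 (2.73%, against 0.729%) under 6-OHDA and 0 under vehicle (0.00176% of all pairs). Many of these calls lay in interstitial macrophages and alveolar fibroblasts, whose own shares over all genes were above those of all types together. There were 7 in 550 (1.27%, against 0.405%) for 6-OHDA with PDAC cells. The difference between effects under BIBO3304 had 5 in 613 (0.816%, against 0.413%). BIBO3304 without PDAC cells had 2 in 613 (0.326%, near the 0.307% of all pairs). Without PDAC cells 6-OHDA had 1 in 613 (0.163%, against 0.0669%), as did BIBO3304 with PDAC cells (against 0.0317%). The difference under 6-OHDA had 0 (0.00744% of all pairs). In the 6-OHDA and BIBO3304 comparisons without PDAC cells the calls were Lair1, an inhibitory collagen receptor of leukocytes, in dendritic cells (1.37 with 6-OHDA, edgeR adjusted p = 0.0162), and Mrc2, an endocytic collagen receptor, in alveolar fibroblasts (0.67 with BIBO3304, edgeR adjusted p = 0.0312). Tgfb1, a fibrogenic cytokine, was lower in alveolar type 2 cells with BIBO3304 (−1.23, edgeR adjusted p = 0.0464), a call lost on leaving out any of 12 samples.

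Collagen breakdown and uptake had the most calls, with 10 higher and 6 lower of 99 under BIBO3304 (median 0.28) and 4 higher and 3 lower of 91 under 6-OHDA. Over all pairs the shares called were 4.25% and 0.729%. Mmp14, a membrane-bound collagenase, had 103 to 117 CPM in interstitial macrophages of 6-OHDA-PDAC and 4.96 to 13.1 in 6-OHDA (log2 change 3.81, edgeR adjusted p = 5.785e-05). Under BIBO3304 it rose in monocytes (4.22, edgeR adjusted p = 0.000316) and in interstitial macrophages (2.66, edgeR adjusted p = 0.000138). Against vehicle-PDAC, Mmp14 was higher in interstitial macrophages of 6-OHDA-PDAC (1.555, edgeR adjusted p = 0.0113) and of BIBO3304-PDAC (1.62, edgeR adjusted p = 0.0360). Vehicle-PDAC had 17.1 and 54.3 CPM, and 1 of its samples held no cancer cell. Neither of these calls was kept on leaving out each sample in turn. Timp1, a tissue inhibitor of metalloproteinases, rose in alveolar fibroblasts under 6-OHDA (3.11, 43.3 to 49.3 against 2.12 to 7.16 CPM, edgeR adjusted p = 0.000414) and under BIBO3304 (2.89, edgeR adjusted p = 0.000403). Mrc1, a mannose receptor that takes up collagen, fell in interstitial macrophages, from 2665 to 4750 CPM in BIBO3304 to 579 to 767 in BIBO3304-PDAC (log2 change −2.34, edgeR adjusted p = 7.728e-05). In the same comparison Mrc1 was higher in monocytes (2.06), B cells (2.47), alveolar type 2 cells (1.62) and peribronchial fibroblasts (2.11), each past the threshold. Only the monocyte call was kept on leaving out each sample. The others were lost without BIBO3304-PDAC sample 2 and also without BIBO3304 sample 2. Interstitial macrophage markers were higher in the same B cells, as given above. The part of macrophage RNA in the Mrc1 values of other types was not tested. The marker shifts of interstitial macrophages given above stood beside the values of that type.

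Genes of folding and modification had 5 higher and 4 lower of 139 under BIBO3304 (against 4.25% of all pairs), with a median of −0.01. P3h2, a prolyl 3-hydroxylase of type IV collagen, fell in interstitial macrophages under BIBO3304 (−3.28, edgeR adjusted p = 3.55e-05) and under 6-OHDA (−2.87, edgeR adjusted p = 0.000173). It was also lower in 6-OHDA-PDAC than in vehicle-PDAC there (−2.34, edgeR adjusted p = 0.00215) and in dendritic cells (−2.32, edgeR adjusted p = 0.00551). In alveolar fibroblasts, where 9.95% of all genes were called under BIBO3304, 5 members were higher and 2 lower. P4hb, a subunit of prolyl 4-hydroxylase, had a change of 0.83 (edgeR adjusted p = 0.0112), while Colgalt2, which adds galactose to hydroxylysine, fell (−1.26, edgeR adjusted p = 0.00800). Propeptide cleavage and cross-linking had 1 call of 55 under BIBO3304, below the 4.25% of all pairs. It was Pcolce2, an enhancer of procollagen cutting, lower in alveolar fibroblasts (−0.98, edgeR adjusted p = 0.0142). Under 6-OHDA there was 1 of 50 (against 0.729% of all pairs), Loxl2 in interstitial macrophages (−2.55, edgeR adjusted p = 0.0485).

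Partners of type IV collagen in basement membranes had 1 higher and 5 lower of 100 under BIBO3304 (median −0.25) and 1 lower of 85 under 6-OHDA. Over all pairs the shares called were 4.25% and 0.729%. Lamc1, the most widespread laminin gamma chain, fell in interstitial macrophages under BIBO3304 (−1.96, edgeR adjusted p = 0.00139) and 6-OHDA (−1.78, edgeR adjusted p = 0.00323). Lama4, a laminin alpha chain of vessels and mesenchyme, fell in alveolar fibroblasts under BIBO3304 (−0.90, edgeR adjusted p = 0.00749). Fibril-binding proteins had 3 higher and 2 lower of 71 under BIBO3304 (against 4.25% of all pairs). Ogn, a small leucine-rich proteoglycan, fell in alveolar fibroblasts under BIBO3304, from 319 to 435 CPM to 124 to 176 (−1.34, edgeR adjusted p = 0.00134). Sparc, a collagen-binding protein of basement membranes, was higher in general capillary cells of 6-OHDA-PDAC than of 6-OHDA (0.96, 424 to 432 against 212 to 236 CPM, edgeR adjusted p = 0.0421).

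Collagen receptors had 2 higher and 1 lower of 61 under BIBO3304, near the 4.25% of all pairs, and 0 of 56 under 6-OHDA (0.729% of all). With PDAC cells, 6-OHDA against vehicle had Lair1 higher (1.72, edgeR adjusted p = 0.00551) and Itga1, a collagen-binding integrin chain, lower (−1.96, edgeR adjusted p = 0.0354), each in dendritic cells. TGF-beta ligands and receptors drive collagen transcription in fibroblasts. They had 2 higher and 2 lower of 88 under BIBO3304, also near the 4.25% of all pairs. Under 6-OHDA 2 of 77 were higher (against 0.729% of all pairs). Those 2 were Tgfbr1 in interstitial macrophages (1.54, edgeR adjusted p = 0.00363) and Tgfbr2 in alveolar fibroblasts (0.85, edgeR adjusted p = 0.0333). Under BIBO3304, Tgfb1 rose in neutrophils (1.66, edgeR adjusted p = 0.00559) and Tgfbr2 fell in interstitial macrophages (−1.66, edgeR adjusted p = 0.00326).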

How the data were processed

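Live DAPI-sorted lung cells were dissociated with collagenase IV, dispase and trypsin, and barcoded by split-pool indexing (Evercode WT v3, oligo(dT) and random hexamer primers), per the labels' protocols. The 16 deposited entries are sublibraries of 1 pool, so groups came from the deposited cell table. Samples marked IV there were taken as PDAC-seeded, because they held 308 of the 312 cancer cells. The deposited matrix holds raw transcript counts, and the authors' table gives the percent of mitochondrial transcripts per cell (highest 9.99). The submitters' processing notes name Seurat 5.3.0 and mm39. Aligner, counter and cell filters: not given in the sources used here.

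Counts were summed per sample and annotated type (at least 20 cells, 2 samples a group), filtered with filterByExpr, scaled by TMM and fitted over all 6 groups with edgeR 4.0.16 (limma 3.58.1, R 4.3.3). P-values were adjusted within type and comparison by Benjamini-Hochberg, with a threshold of 0.05. The scripts were tested on simulated data. No doublet caller was run, and the deposited annotation was used as it stands. Sums and figures were made in Python 3.11.15 with pandas 2.3.3, scipy 1.17.1 and matplotlib 3.10.9.

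The members and lists were chosen with earlier results of these data known. Named are collagens with at least 20 CPM in a type, called pairs, the 3 smallest p where fewer than 3 passed, and up to 3 called members a list by smallest p. Alternatives were DESeq2 1.42.0, RLE scaling, no filter, at least 50 cells, only the groups compared, a replicate block, and leaving out each sample.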

Additional observations from a re-analysis of the deposited data

Results flagged for a closer look

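The difference between the effects of PDAC cells on Col3a1 in B cells under BIBO3304 and under vehicle was called, at 2.78 on the log2 scale (SE 0.667, edgeR adjusted p = 0.0404). Col3a1 in B cells was 17.4, 5.89 and 37.6 CPM in BIBO3304 and 68.5 and 132 in BIBO3304-PDAC, and 53.8, 78.5 and 51.8 in vehicle and 32.0 and 65.8 in vehicle-PDAC. Vehicle-PDAC sample 2 held no cancer cell. The call was lost in a fit of the compared groups alone (0.0587), with the replicate block (0.0546) and without any of 6 of the 15 samples (up to 0.379, without BIBO3304-PDAC sample 2). The 5 interstitial macrophage markers in B cells summed to 2.89 to 7.45 CPM in BIBO3304 and 79.9 to 132 in BIBO3304-PDAC, and their part in the difference was not tested.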

How the results depend on the processing

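The 69 single-gene values were set against their alternatives in 914 pairs of value and alternative. In 827 of these pairs the direction and side of the threshold were kept, in 66 the value no longer passed, in 21 it newly passed and in 0 it reversed. Of the 22 called pairs, 20 were lost under at least 1 alternative. Without the filter on low counts, the counts of called collagen pairs went to 4 (6-OHDA, from 1), 11 (BIBO3304, from 1), 8 (6-OHDA with PDAC cells, from 3), 2 (BIBO3304 with PDAC cells, from 0), 3 (PDAC cells under vehicle, from 0), 11 (under 6-OHDA, from 5), 24 (under BIBO3304, from 11), 1 and 4 (differences under 6-OHDA and BIBO3304, from 0 and 1). DESeq2 gave 3 for BIBO3304, 7 for 6-OHDA with PDAC cells, 9 for PDAC cells under 6-OHDA and 3 for the BIBO3304 difference. Fitting only the groups compared gave 3 for BIBO3304, 9 for PDAC cells under 6-OHDA and 0 for the BIBO3304 difference. The causes were not tested. The shares of all pairs called under these settings, under the replicate block and on leaving out samples are not given here. These counts therefore describe how the calls depend on the setting and are not read as results about collagens. RLE scaling and a minimum of 50 cells left all 9 counts within 1.5 times.

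With sample number as a replicate block the counts were 0 for BIBO3304, 8 for PDAC cells under 6-OHDA and 0 for the BIBO3304 difference, and 4, 1, 0, 16, 0 and 0 for the others in the order 6-OHDA with PDAC cells, 6-OHDA, BIBO3304 with PDAC cells, PDAC cells under BIBO3304 and under vehicle, and the 6-OHDA difference. Of 617 same-numbered pairs of samples 120 had deviations correlated above 0.1, with a median of 0.003, so the numbers were not taken to pair samples.

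Leaving out 1 sample at a time gave counts of 0 to 1 (6-OHDA), 0 to 4 (BIBO3304), 0 to 7 (6-OHDA with PDAC cells), 0 to 0 (BIBO3304 with PDAC cells), 0 to 1 (PDAC cells under vehicle), 1 to 7 (under 6-OHDA), 2 to 18 (under BIBO3304), 0 to 0 and 0 to 10 (differences under 6-OHDA and BIBO3304). Without vehicle-PDAC sample 2, which held no cancer cell, they were 4 for BIBO3304, 1 for 6-OHDA with PDAC cells, 1 for PDAC cells under vehicle, 18 under BIBO3304 and 10 for the BIBO3304 difference. Called single genes lost by other settings were Col5a2 in large-vessel endothelium without the filter (adjusted p = 0.110), Col23a1 in alveolar fibroblasts with only the groups compared (0.0759) and with the block (0.0541), Col3a1 in general capillary cells and Col27a1 in interstitial macrophages with only the groups compared (0.0656 and 0.0504), and the B cell difference of Col3a1 in both (0.0587 and 0.0546). Groups of 2 samples and single-digit transcript sums limit the capillary and macrophage values.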
